A study of Mus musculus with 24 samples.

Results

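The calcium handling genes described here are 10 of the 23366 genes in the deposited tables: the pumps Atp2b4, Atp2b1, Atp2a2 and Atp2a3, the entry and release proteins Stim1, Orai1 and Itpr1, and Rcan1, Nfatc1 and Nfatc2 of the calcineurin-NFAT branch. They were listed by name and had to be present in both tables. Atp2b4 was selected on its measured values: it was strongly higher with dexamethasone at day 3 in cells that carry the glucocorticoid receptor and far less so in cells that lack it. Its day 3 responses, and anything derived from them, are therefore given as a description with no test. All 10 genes passed the low-count filter on both days, so none was left out.

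The data are 24 RNA-seq libraries of CD8+ T cells from C57BL/6 mice, 3 in each of 8 groups. Naive cells, sorted from spleen and lymph nodes as CD8+ CD62Lhi CD44-, were stimulated in every group by anti-CD3 and anti-CD28, each at 1 µg/ml. All animals carried floxed Nr3c1, the gene of the glucocorticoid receptor: the cells called WT were E8i-Cre- Nr3c1 fl/fl, and those called cKO were E8i-Cre+ Nr3c1 fl/fl. E8i-Cre is driven by an enhancer of the Cd8a locus that is active in mature CD8+ T cells. At day 3 the groups were WT Ctrl, WT Dex, cKO Ctrl and cKO Dex, where Dex is dexamethasone, a synthetic glucocorticoid, at 10 nM. At day 9 all cells were WT and had been stimulated for 3 days, rested for 3 days with 5 ng/ml of IL2 and stimulated again for 3 days. The day 9 groups were Ctrl, Dex at 10 nM, IL27 at 25 ng/ml, and Dex+IL27, with the agents present in both stimulations. RNA came from 1000 sorted cells per library and was amplified by a SMART-Seq2 protocol. The labels give no age, and they do not say whether the 3 libraries of a group came from separate animals or cultures, so the p-values measure the spread between these libraries, which may be technical.

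In a resting T cell, calcium is kept low in the cytosol by pumps of the plasma membrane, which export it (the PMCA family, genes Atp2b1 through Atp2b4), and by pumps of the endoplasmic reticulum, which store it (the SERCA family, genes Atp2a1 to Atp2a3). Antigen receptor signals produce IP3, which opens the IP3 receptors of the store. The emptied store is sensed by STIM1, which opens the ORAI1 channel. The calcium that enters binds calmodulin and activates the phosphatase calcineurin, which moves NFAT factors into the nucleus, where they help to induce cytokine genes.

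Promoter windows of RefSeq (build GRCm38.p6, 250 bases before to 50 after each annotated start, 300 bases in all) were found for 7 of the 10 genes, in 10 windows. Atp2a2, Itpr1 and Nfatc1 had no entry. A pair of windows is shown here because the results turn on the receptor-linked gene Atp2b4 and because Rcan1 is a textbook calcineurin feedback gene. These motifs were searched on both strands: AGAACA, 1 arm of the glucocorticoid response element; the whole element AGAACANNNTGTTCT, which contains that arm; GGAAA, the core bound by NFAT; and TGANTCA, bound by AP-1. The first is capitalised in the Atp2b4 window (chr1:133753698-133753997, minus strand), where it reads TGTTCT on the printed strand. The GGAAA matches before the start are capitalised in the Rcan1 window (chr16:92400029-92400328, minus strand), which belongs to an internal start of the gene.
Atp2b4: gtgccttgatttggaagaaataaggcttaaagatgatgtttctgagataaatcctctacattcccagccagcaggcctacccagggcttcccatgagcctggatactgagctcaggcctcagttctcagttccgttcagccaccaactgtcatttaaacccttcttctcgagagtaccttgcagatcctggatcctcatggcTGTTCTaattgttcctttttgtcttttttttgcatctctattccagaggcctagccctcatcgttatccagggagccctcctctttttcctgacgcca
Rcan1: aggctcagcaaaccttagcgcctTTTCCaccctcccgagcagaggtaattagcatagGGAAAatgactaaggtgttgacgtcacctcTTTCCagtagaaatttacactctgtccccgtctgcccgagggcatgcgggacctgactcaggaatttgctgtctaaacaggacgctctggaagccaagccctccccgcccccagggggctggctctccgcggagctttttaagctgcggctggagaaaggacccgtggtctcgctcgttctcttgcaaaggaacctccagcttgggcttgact
The Atp2b4 window held 1 copy of AGAACA, beginning 48 bases before the start, and no copy of the whole element. It was the single one of the 10 windows with AGAACA, a motif that 19% of all 32851 windows hold. The whole element is in 0.00913% of them. The Rcan1 window shown held 3 copies of GGAAA, which 61.3% of all windows hold, and 1 of TGANTCA, which 7.81% hold. The other Rcan1 window held no match to any of these motifs. The Atp2b4 window also held 1 copy of GGAAA, after the start, and 1 Nfatc2 window held 3. A match is only a description of the letters.

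The tables held 14221900 to 19018400 estimated counts per library. Nr3c1, the targeted gene, stood at 14.97 to 21.5 CPM (counts scaled to library size with TMM factors) in the day 3 WT libraries and at 5.38 to 8.30 in the cKO libraries, and its counts are per gene and do not resolve the deleted part. Without Dex it was lower in cKO (log2 change -1.14 ± 0.15 SE, adjusted p = 8.63e-04). CD8 T cell markers summed to 1163 to 1722 CPM per library. The B cell sum was 6.23 to 21.2 CPM, nearly all of it Cd79b, with Pax5 at 0, and the NK sum was at most 16.9, carried by Eomes, with Ncr1 at most 0.108. CD4 T cell markers summed to 11.5 to 22.01 CPM and erythroid and platelet markers to 1.36 to 6.93 CPM, with 4 of the latter 10 at 0. The 5 measured myeloid markers moved with the day 9 groups: 2.27 to 4.17 CPM in Ctrl, 11.7 to 14.7 in Dex, 13.8 to 18.9 in IL27 and 23.1 to 25.4 in Dex+IL27, carried by Cd68 and Itgam, with Lyz2 at most 0.108 and Csf1r at most 0.324. The ribosomal RNA row Rn45s also moved with them, at 8.95% to 9.25% of counts in Ctrl and 13.8% to 16.4% in the other day 9 libraries. The NK sum was 7.84 to 11.8 CPM in Ctrl at day 9 and at most 2.34 in the treated libraries of that day. At day 3 it was 10.2 to 13.1 CPM in WT Ctrl and 2.27 to 3.86 in WT Dex. The erythroid and platelet sum was 5.29 to 6.93 CPM in Dex at day 9 and 1.77 to 2.79 in Ctrl, which the IL27 and Dex+IL27 libraries overlapped. The part of these differences in the results was not tested. In sorted bulk RNA, fewer cells that express a gene and less RNA per cell cannot be told apart.

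Levels are given below in CPM for 1 gene across libraries and in FPKM (fragments scaled to gene length and library size, by the authors) wherever 2 genes are compared. Changes are log2 with their SE, fitted by edgeR, whose quasi-likelihood p was adjusted over all genes tested (Benjamini-Hochberg), and a gene is said to have risen or fallen where that p was under 0.05. At day 3, Dex changed 9.43% of the 11967 tested genes in WT cells, and 1 of the 9 calcium handling genes open to test, Nfatc2, rose. In cKO cells Dex changed 0% of genes (0 genes, with 399 at an unadjusted p under 0.05 and 0 by DESeq2), and 0 of 9. The difference between the genotypes' Dex responses passed for 2.95% of genes and 0 of 9, and cKO against WT without Dex for 2.36% of genes and 0 of 10. The last share is 283 genes, and the count was 63 to 177 without WT Ctrl replicate 1 or 2 or any 1 of the 3 cKO Ctrl libraries. The first, 1129 genes, was 691 without WT Dex replicate 3 and 722 without WT Ctrl replicate 2, and the 353 genes that differed between the genotypes were 224 and 235 without the same libraries. At day 9 the background was far larger. Dex changed 55.6% of 12320 genes and 6 of the 10, IL27 changed 57.4% and 5 of the 10, and Dex+IL27 against Ctrl changed 66.9% and 7 of the 10. These day 9 shares are near the background, so it is the size and direction of single genes that is described here. The 3 day 9 comparisons share the Ctrl libraries.

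Atp2b4 encodes PMCA4, a calmodulin-activated pump that exports calcium across the plasma membrane. The day 3 WT Ctrl libraries held 4.28, 4.92 and 4.13 CPM and the WT Dex libraries 30.9, 33.1 and 34.8 CPM. The cKO Ctrl libraries held 6.23, 6.21 and 6.14 CPM and the cKO Dex libraries 6.87, 8.48 and 9.96 CPM. The WT Dex libraries stood apart from all the others of that day, and the cKO Dex libraries lay just above their controls. The fitted difference was 2.90 ± 0.14 on the log2 scale in WT, or 7.46-fold, and 0.45 ± 0.14 in cKO, or 1.36-fold. The values that placed the gene on the list are these, and no test is attached to them. Without Dex the gene was 0.49 ± 0.16 higher in cKO on the log2 scale, with no overlap of the libraries, and did not pass (adjusted p = 0.108). That comparison shares the Ctrl libraries with the values used to choose the gene.

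**Figure D1:**
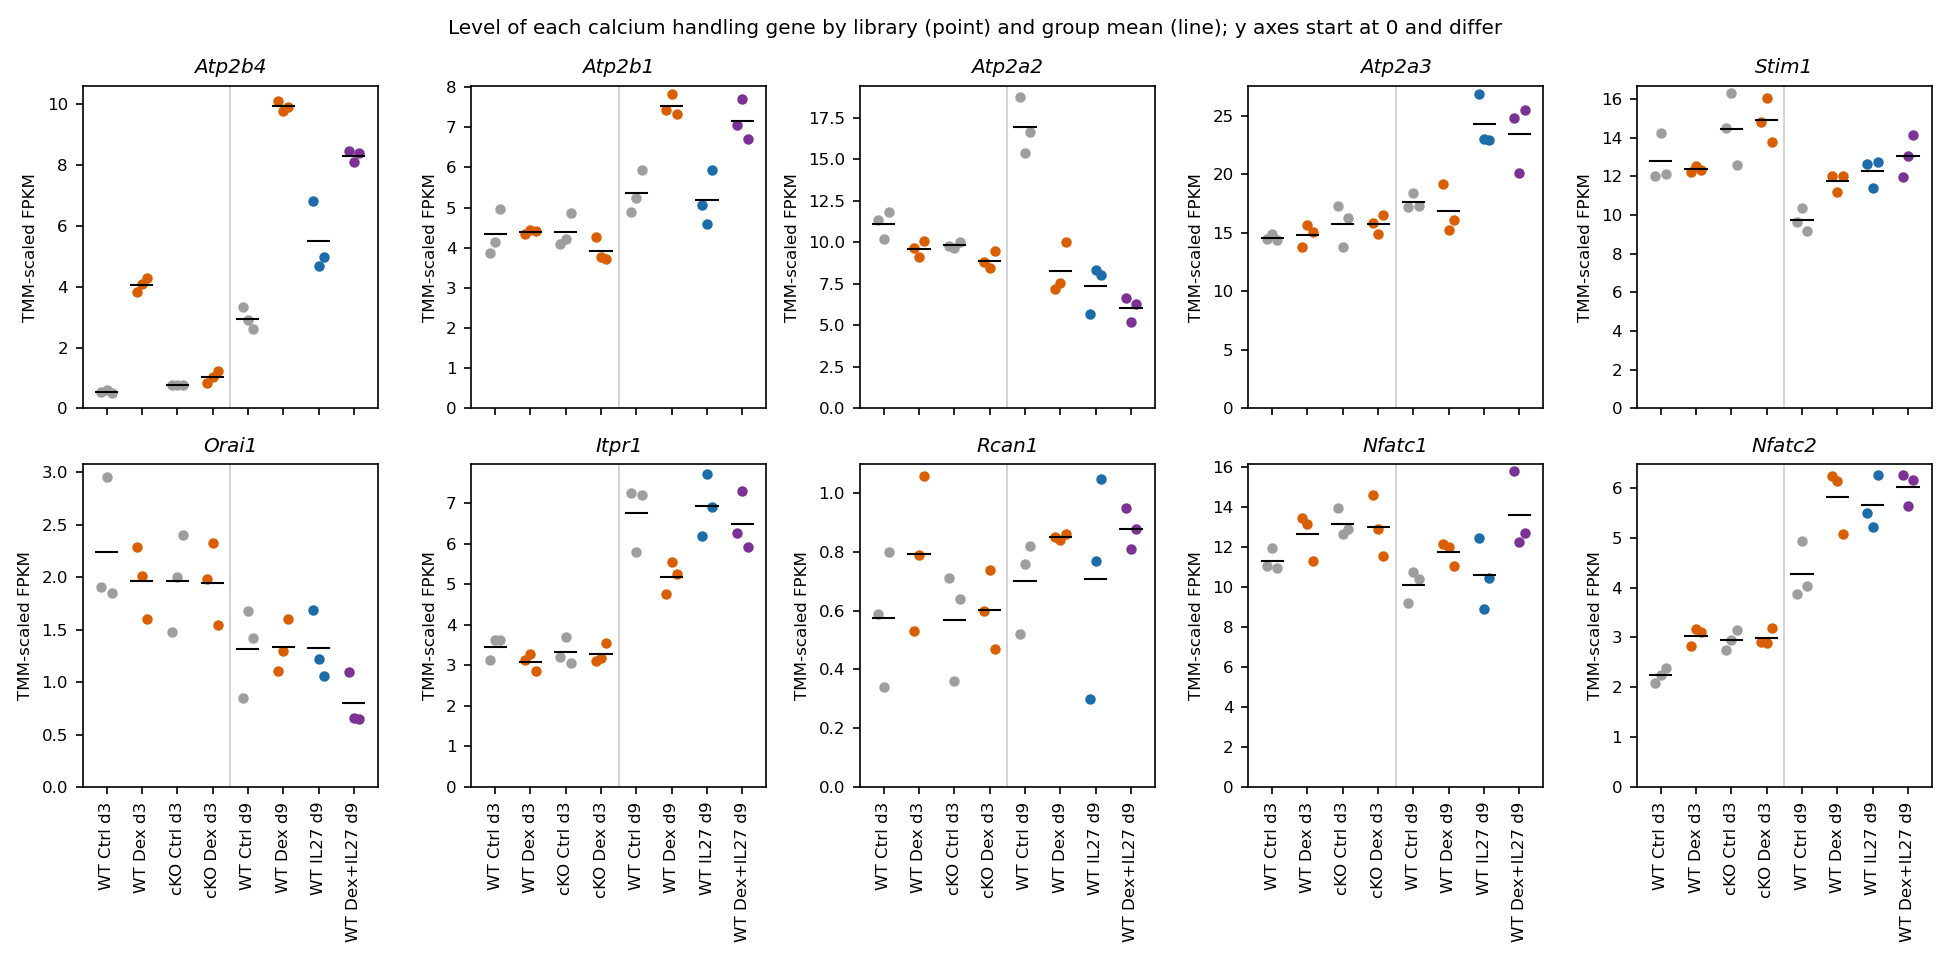
FPKM (vertical axis) of each of the 10 genes in every library, by group (horizontal axis), with points for single libraries and a line for each group mean. Atp2b4 runs from 0.51 FPKM in a WT Ctrl day 3 library to 10.11 FPKM in a Dex day 9 library, the widest span relative to its lowest value among the 10 panels, while Stim1 stays between 9.17 and 16.31 FPKM.

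At day 9, Atp2b4 rose with both agents. The reason given for its choice names the day 3 response, but the choice was made with earlier results of these data known. The day 9 p-values may therefore not be free of that choice. The Ctrl libraries held 27.0, 23.6 and 21.1 CPM, the Dex libraries 81.8, 79.1 and 80.3, the IL27 libraries 55.2, 37.9 and 40.3, and the Dex+IL27 libraries 68.5, 65.5 and 67.8. None of the 9 treated libraries fell into the range of Ctrl, and the 3 treated groups did not overlap each other. Dex raised it by 1.76 ± 0.13 on the log2 scale, or 3.39-fold (adjusted p = 4.90e-08). IL27 raised it by 0.91 ± 0.13, or 1.88-fold (adjusted p = 2.32e-05). Dex+IL27 raised it by 1.53 ± 0.13 over Ctrl, or 2.89-fold (adjusted p = 6.25e-08). All 3 libraries of the combination lay below those of Dex alone. The interaction of Dex and IL27 was -1.14 ± 0.18 (adjusted p = 3.25e-04), in a comparison where 28.5% of genes and 2 of the 10 passed. Over all 8 groups, no neighbours in the order of levels overlapped. The order ran from Dex day 9 at 9.93 FPKM through Dex+IL27 at 8.31, IL27 at 5.49, WT Dex day 3 at 4.07, Ctrl day 9 at 2.95, cKO Dex at 1.04 and cKO Ctrl at 0.767 to WT Ctrl day 3 at 0.55.

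Untreated day 9 cells thus held a mean of 2.95 FPKM of Atp2b4 against 0.55 FPKM in untreated day 3 cells, and the Dex difference was smaller at day 9 than at day 3, by 1.10 ± 0.19 on the log2 scale (a description, since the rule used the day 3 part). Days differ also in culture history and in the letter of the library titles, and these cannot be told apart.

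Atp2b1 encodes PMCA1, the widely expressed export pump. It did not follow Atp2b4 at day 3, where the WT Ctrl libraries held 27.6, 29.6 and 35.4 CPM and the WT Dex libraries 30.9, 31.6 and 31.5 CPM (log2 change 0.04 ± 0.10, adjusted p = 0.873). At day 9 it stood at 34.9, 37.4 and 42.4 CPM in Ctrl, 52.9, 55.7 and 52.2 in Dex, 36.2, 32.8 and 42.3 in IL27, and 50.3, 54.9 and 47.8 in Dex+IL27. Both groups with Dex lay above both groups without it. Dex raised it by 0.50 ± 0.10 (adjusted p = 7.44e-04) and Dex+IL27 by 0.45 ± 0.10 (adjusted p = 0.00115), while IL27 alone gave -0.03 ± 0.10 (adjusted p = 0.836). The Dex effect was larger at day 9 than at day 3 by 0.50 ± 0.15 (adjusted p = 0.00902), one of 3 of the 9 genes to pass in that comparison, in which 39.6% of 12666 genes did.

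The balance of the 2 export pump genes therefore differed by group. Atp2b4 stood at 0.129 ± 0.0233 (SD, n = 3) of the Atp2b1 FPKM in WT Ctrl cells at day 3 and at 0.925 ± 0.0442 in WT Dex cells, against 0.175 in cKO Ctrl and 0.269 in cKO Dex. By day 9 the ratio was 0.558 in Ctrl, 1.32 in Dex, 1.07 with IL27 and 1.17 with Dex+IL27. The summed level of both genes was 4.88 FPKM in WT Ctrl and 8.46 in WT Dex at day 3. It was 8.31 FPKM in Ctrl, 17.4 in Dex, 10.7 with IL27 and 15.5 with Dex+IL27 at day 9. The other family members, Atp2b2 and Atp2b3, did not pass the low-count filter.

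**Figure D2:**
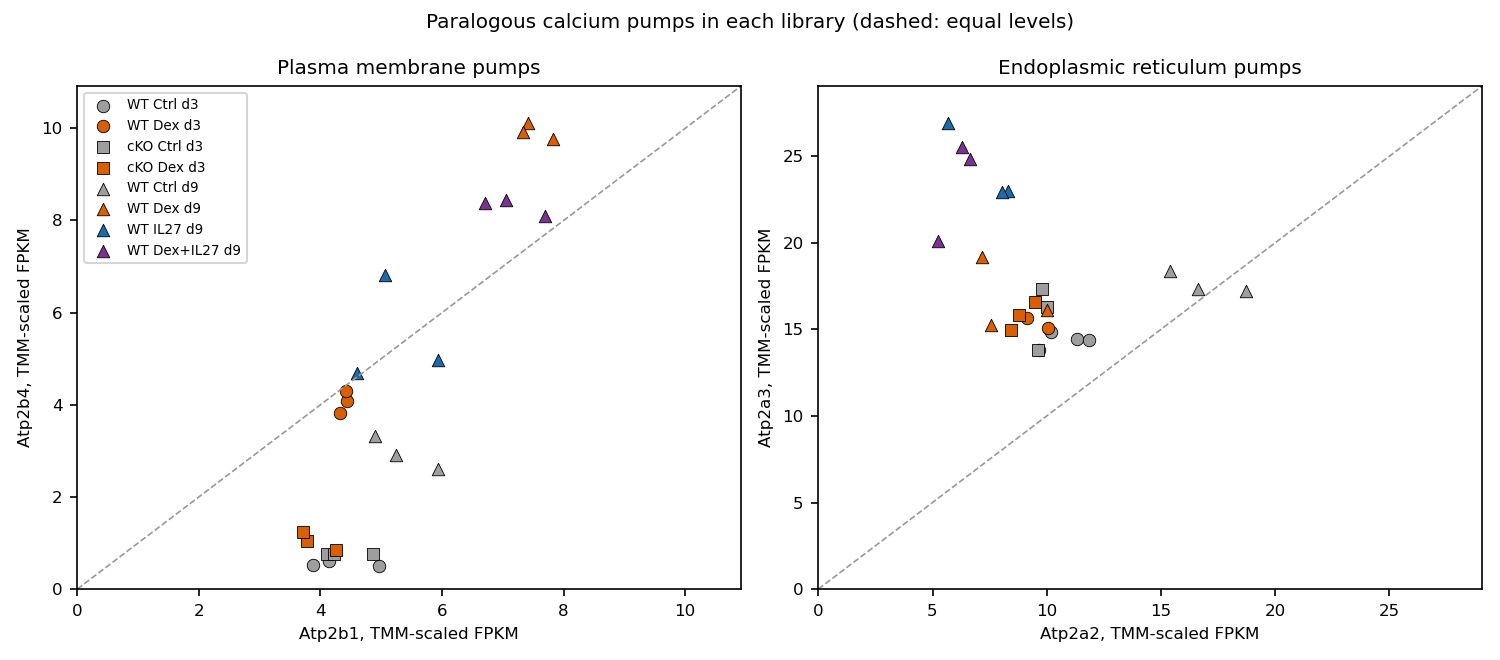
FPKM of Atp2b4 against Atp2b1 (left) and of Atp2a3 against Atp2a2 (right), 1 point per library, coloured by group, with a dashed line where both genes are equal. WT Dex libraries of day 3 lie close to the line on the left, where the other day 3 libraries lie far below it, and on the right the IL27 and Dex+IL27 libraries lie farthest above it.

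The store pumps moved in another way. Atp2a2 encodes SERCA2, the general pump that fills the endoplasmic reticulum. At day 9 the Ctrl libraries held 87.3, 71.8 and 77.6 CPM, the Dex libraries 33.5, 35.2 and 46.8, the IL27 libraries 26.5, 38.7 and 37.6, and the Dex+IL27 libraries 31.0, 24.4 and 29.5. All 9 treated libraries were below every Ctrl library. Dex lowered it to 0.492-fold (log2 change -1.02 ± 0.15, adjusted p = 4.10e-05), IL27 to 0.438-fold (-1.19 ± 0.15, adjusted p = 9.29e-06) and Dex+IL27 to 0.369-fold (-1.44 ± 0.15, adjusted p = 8.34e-07). The joint fall was smaller than the sum of the single ones on the log2 scale, by 0.77 ± 0.22 (adjusted p = 0.0151). At day 3 the WT libraries held 52.8, 47.6 and 55.3 CPM in Ctrl and 45.1, 42.5 and 47.0 in Dex, which did not overlap and did not pass (-0.19 ± 0.08, adjusted p = 0.133). The Dex effect at day 9 differed from that at day 3 by -0.80 ± 0.18 (adjusted p = 7.88e-04).

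Atp2a3 encodes SERCA3, a store pump typical of blood cells. At day 9 it stood at 78.6, 83.7 and 79.0 CPM in Ctrl and 87.3, 69.4 and 73.4 in Dex, which overlapped (log2 change -0.06 ± 0.11, adjusted p = 0.679). The IL27 libraries held 123, 104.8 and 104.5 CPM and the Dex+IL27 libraries 113, 91.5 and 116. Both groups with IL27 lay above both groups without it. IL27 raised Atp2a3 by 0.48 ± 0.11, or 1.39-fold (adjusted p = 0.00140), and Dex+IL27 by 0.45 ± 0.11 (adjusted p = 0.00159). The WT libraries of day 3 held 65.9, 67.8 and 65.4 CPM in Ctrl and 62.8, 71.4 and 68.7 in Dex (0.04 ± 0.08, adjusted p = 0.807).

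Atp2a3 and Atp2a2 were near equal in Ctrl cells at day 9, at a FPKM ratio of 1.05, and Atp2a3 led by 2.10 in Dex, 3.45 with IL27 and 3.87 with Dex+IL27. The day 3 ratio was 1.32 in WT Ctrl and 1.55 in WT Dex cells, and 1.61 and 1.78 in the same order in cKO. The summed level of both moved less than the ratio, from 34.6 FPKM in Ctrl to 25.1 in Dex, 31.6 with IL27 and 29.6 with Dex+IL27 at day 9, and was 24.5 to 25.7 FPKM in the 4 day 3 groups. Atp2a1, the muscle store pump, was at the edge of detection: its counts were 3, 3 and 2 in the Ctrl libraries of day 9, 14 to 24 in Dex, 32.89 to 75 in IL27 and 28 to 44 in Dex+IL27. It rose in all 3 comparisons (adjusted p = 2.42e-04, 8.38e-06 and 1.13e-05).

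**Figure D3:**
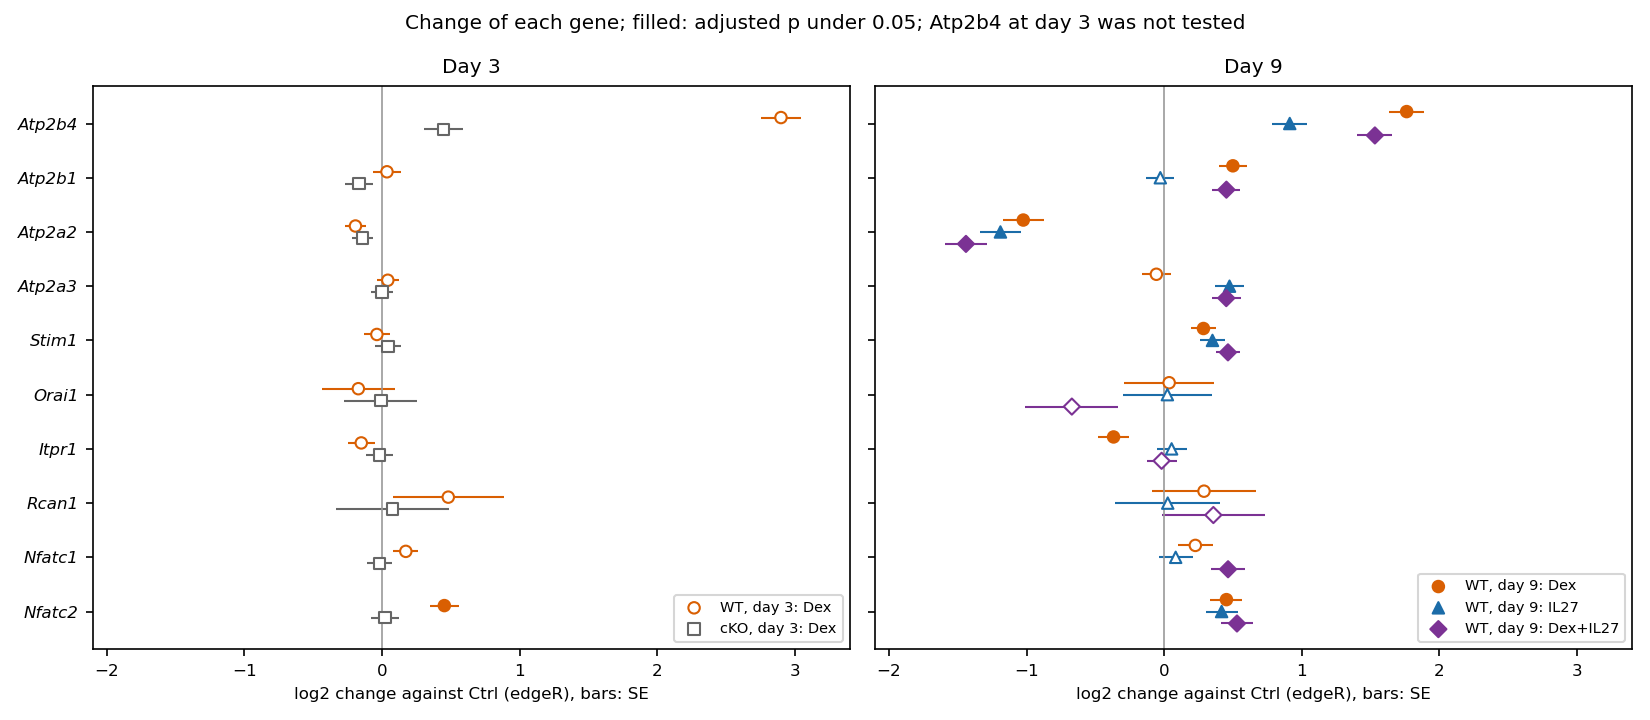
Log2 change with its SE (horizontal axis) of each gene, with Dex in WT and cKO cells at day 3 (left) and with Dex, IL27 and Dex+IL27 against Ctrl at day 9 (right); filled points have an adjusted p under 0.05. The day 9 panel spreads from Atp2a2 at -1.44 with Dex+IL27 to Atp2b4 at 1.76 with Dex. The day 3 value of Atp2b4 is shown without a test.

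Stim1, the calcium sensor of the store, rose modestly in every treated group at day 9. The Ctrl libraries held 34.7, 37.4 and 33.0 CPM, the Dex libraries 43.3, 40.3 and 43.4, the IL27 libraries 45.5, 41.1 and 46.0, and the Dex+IL27 libraries 43.0, 47.0 and 51.0. No treated library overlapped Ctrl. The log2 changes were 0.29 ± 0.09 with Dex (adjusted p = 0.0139), 0.35 ± 0.09 with IL27 (adjusted p = 0.00359) and 0.46 ± 0.09 with Dex+IL27 (adjusted p = 3.10e-04). Without the Ctrl replicate 3 the Dex call was lost (adjusted p = 0.0682, within a range of 0.00678 to 0.0682 over 16 alternatives). The day 3 WT libraries overlapped, at 43.4, 51.4 and 43.8 CPM in Ctrl and 44.1, 45.3 and 44.4 in Dex. Untreated day 9 cells had the lowest level of the 8 groups, 9.72 FPKM, and the treated day 9 groups stood at 11.7 to 13.05 FPKM. Of these, IL27 and Dex+IL27 overlapped the WT day 3 groups, which stood at 12.4 and 12.8. Its Dex effect was 0.36 ± 0.13 larger at day 9 than at day 3 (adjusted p = 0.0369), a call that 14 of 20 alternatives lost (adjusted p 0.0264 to 0.132).

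Orai1, the pore of the store-operated channel, was scarce, with 20 to 93.45 counts per library, and neighbouring groups in the order of its levels overlapped throughout. The day 9 libraries held 1.60, 3.14 and 2.65 CPM in Ctrl, 2.09, 2.43 and 3.00 in Dex, 3.16, 2.29 and 1.99 in IL27, and 2.06, 1.23 and 1.21 in Dex+IL27. With Dex+IL27 the change was -0.67 ± 0.34 and did not pass (adjusted p = 0.0932). It passed without Ctrl replicate 1 (adjusted p = 0.0339) and without Dex+IL27 replicate 1 (0.0366), in a range of 0.0339 to 0.304 over 16 alternatives. With Dex alone it was 0.04 ± 0.33 and with IL27 0.02 ± 0.33, so changes of the size seen for Stim1 were not detectable at this depth. By FPKM, Stim1 exceeded Orai1 5.89-fold in WT Ctrl cells at day 3 (4.82 to 6.56 over the libraries). At day 9 the ratio was 7.98 in Ctrl (6.17 to 11.3) and 17.5 in Dex+IL27 (10.9 to 21.8), and these ranges overlapped.

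Itpr1 encodes the type 1 IP3 receptor, a release channel of the store. At day 9 the Ctrl libraries held 71.7, 57.2 and 71.2 CPM and the Dex libraries 47.2, 54.8 and 51.8, below all of Ctrl. Dex gave a log2 change of -0.37 ± 0.11 (adjusted p = 0.0103), and without Dex replicate 1 the call was lost (adjusted p = 0.0506, in a range of 7.07e-04 to 0.0506 over 16 alternatives). The IL27 libraries, at 61.3, 76.3 and 68.2 CPM, and the Dex+IL27 libraries, at 61.9, 72.1 and 58.5, overlapped Ctrl (log2 changes 0.05 ± 0.11 and -0.02 ± 0.11, adjusted p = 0.691 and 0.891). Day 3 groups lay lower, at 28.3 to 36.5 CPM over all 12 libraries, with no change by Dex past the threshold in WT (-0.15 ± 0.10, adjusted p = 0.389).

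Nfatc2, also called NFAT1, is the NFAT factor already present in resting T cells. At day 3 it was the 1 gene of the 9 open to test that rose with Dex in WT cells, from 13.5, 14.6 and 15.4 CPM in Ctrl to 18.4, 20.5 and 20.1 in Dex (0.45 ± 0.11, 1.37-fold, adjusted p = 0.0108). The cKO libraries held 17.8, 19.1 and 20.4 CPM in Ctrl and 18.8, 18.7 and 20.7 in Dex, and Dex gave a log2 change of 0.02 ± 0.10 there. The cKO Ctrl libraries thus overlapped the WT Dex ones. Against WT Ctrl they were 0.41 ± 0.11 higher, with no overlap, and did not pass (adjusted p = 0.0515). The difference between the genotypes' Dex responses was 0.43 ± 0.15 and did not pass either (adjusted p = 0.144, 0.106 to 0.332 over 21 alternatives). The day 3 rise was lost without WT Ctrl replicate 1 (adjusted p = 0.0545) and in limma without a filter (0.0606), in a range of 0.00388 to 0.0606 over 16 alternatives.

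At day 9 Nfatc2 rose with both agents. The Ctrl libraries held 25.1, 31.9 and 26.2 CPM, the Dex libraries 40.4, 39.8 and 32.8, the IL27 libraries 35.6, 33.8 and 40.6, and the Dex+IL27 libraries 40.6, 36.5 and 39.9. All treated libraries were above Ctrl and overlapped each other. The log2 changes were 0.45 ± 0.12 with Dex (adjusted p = 0.00396), 0.42 ± 0.12 with IL27 (adjusted p = 0.00629) and 0.53 ± 0.12 with Dex+IL27 (adjusted p = 8.95e-04), and the interaction of -0.34 ± 0.16 did not pass (adjusted p = 0.135).

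Nfatc1, or NFAT2, is the family member whose own transcription is raised by NFAT in activated T cells. At day 9 it stood at 41.4, 48.5 and 46.8 CPM in Ctrl, 54.8, 54.0 and 49.8 in Dex, 56.1, 40.1 and 47.1 in IL27, and 71.1, 55.3 and 57.2 in Dex+IL27. It rose with Dex+IL27 (0.46 ± 0.12, adjusted p = 0.00397). Neither agent alone passed, at 0.23 ± 0.12 with Dex (adjusted p = 0.137) and 0.08 ± 0.12 with IL27 (adjusted p = 0.586). In day 3 WT libraries it was at 49.8, 53.7 and 49.4 CPM in Ctrl and 60.6, 59.2 and 50.9 in Dex, which overlapped (0.17 ± 0.09, adjusted p = 0.269). By FPKM, Nfatc1 exceeded Nfatc2 in every group, 5.07-fold in WT Ctrl cells at day 3 and 1.88-fold to 2.38-fold in the day 9 groups.

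Rcan1, an inhibitor of calcineurin that calcineurin-NFAT signals induce, was close to the detection limit in all cells, with 12 to 45 counts per library and 0.30 to 1.06 FPKM. The day 9 libraries held 1.20, 1.75 and 1.89 CPM in Ctrl, 1.96, 1.94 and 1.98 in Dex, 0.690, 1.76 and 2.41 in IL27, and 2.17, 1.85 and 2.02 in Dex+IL27. No comparison passed for it. At day 9 the log2 changes were 0.29 ± 0.38 with Dex, 0.03 ± 0.38 with IL27 and 0.36 ± 0.38 with Dex+IL27, so a change as large as that of Nfatc2 was not detectable at this depth.

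The wider pathway was followed in 8 lists of 96 further genes, 81 of which were tested at day 3 and 80 at day 9. The lists were chosen with earlier results of these data known, so their shares are descriptions and not a test of the pathway. At day 3, 6 of the 81 rose and 10 fell with Dex in WT cells, 19.8% beside the background of 9.43%. At day 9, of 80 genes, 24 rose and 25 fell with Dex, 29 rose and 24 fell with IL27, and 32 rose and 27 fell with Dex+IL27. These day 9 counts come to 61.25%, 66.25% and 73.75% of the genes, beside backgrounds of 55.6%, 57.4% and 66.9%.

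**Figure D4:**
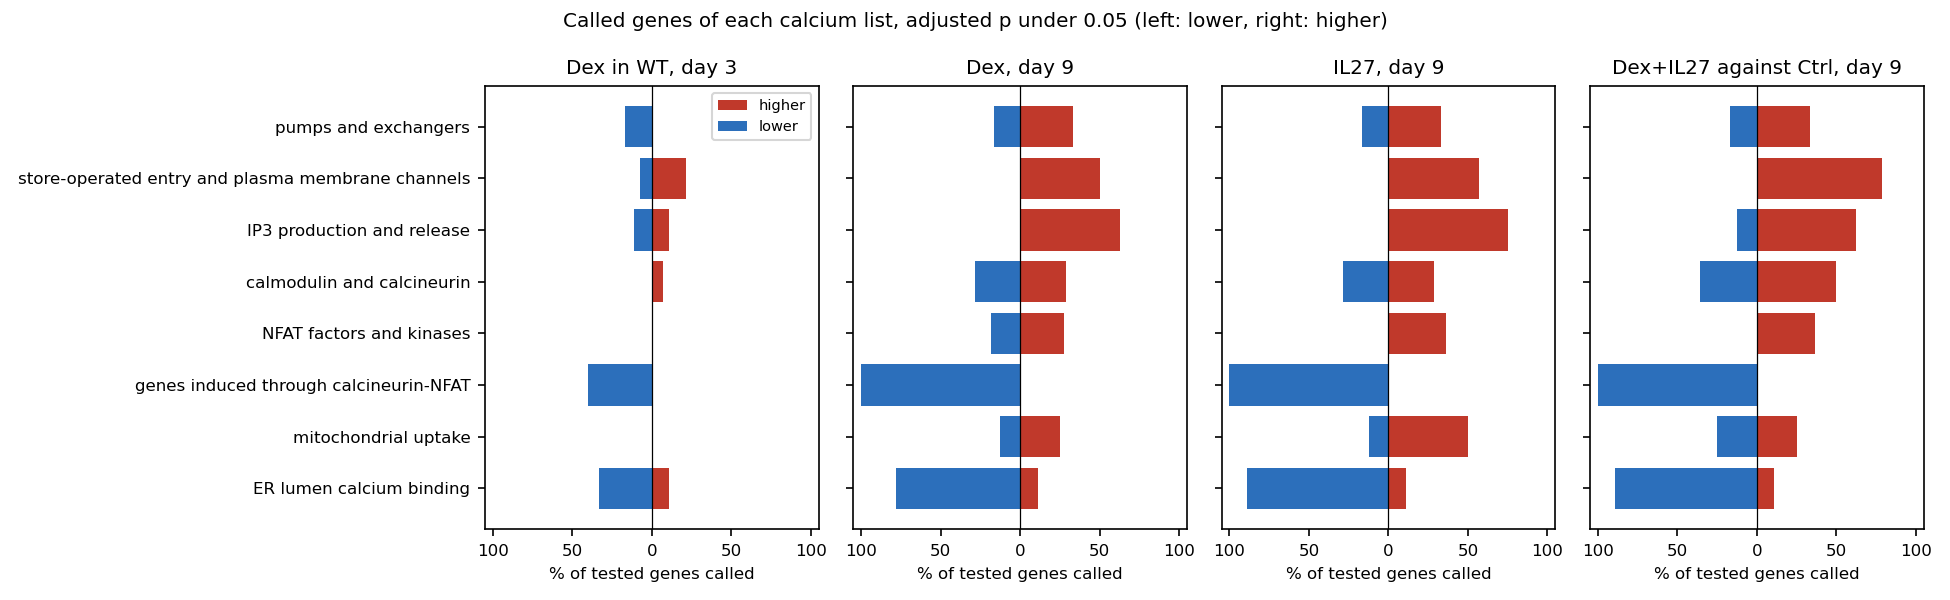
Percent of the tested genes of each of 8 pathway lists (vertical axis) that were called lower (left of zero) or higher (right of zero) in 4 comparisons against Ctrl. The bars of the list of genes induced through calcineurin-NFAT lie on the lower side in all 4 panels. They reach all 10 genes in the day 9 panels. Those of the lists of store-operated entry and of IP3 production and release lie mostly on the higher side at day 9.

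The 10 genes listed as induced through calcineurin and NFAT were, against Ctrl, only ever called lower. The list was chosen with earlier results of these data known. It leaves out Nfatc1, which rose with Dex+IL27 (0.46 ± 0.12), and Rcan1, which passed in no comparison, although NFAT signals induce both. Fitted changes of the listed genes with Dex in WT at day 3 ran from -5.22 to 0.41. At day 3, 4 of the 10 (Ifng, Tnf, Il3 and Egr2) fell with Dex in WT cells and 0 rose, beside 4.5% of all genes that fell. At day 9 all 10 fell with Dex, with IL27 and with Dex+IL27, where 27.4%, 28.1% and 32.6% of all genes fell. The medians were -2.96, -2.48 and -4.45 on the log2 scale beside 0.03, 0.03 and 0.05 over all genes. With genes that had no counts in a treated group set to their bound (3 counts over the group), the last median was -4.22. Over 16 alternatives 8 to 10 of them fell at day 9 in each comparison, and 0 rose. Ifng, the gene of interferon gamma, stood at 241, 204 and 288 CPM in WT Ctrl libraries at day 3 and at 6.71, 11.3 and 1.56 in WT Dex. In cKO cells Ifng was at 196, 195 and 237 CPM in Ctrl and 154, 168 and 163 in Dex. Only the WT Dex libraries of that day were low in Ifng, and its fall in WT was -5.22 ± 0.29 (adjusted p = 2.13e-09).

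At day 9 Ifng was at 1216, 934 and 861 CPM in Ctrl, 5.81, 24.8 and 14.7 in Dex, 58.9, 192 and 199 in IL27, and 14.4, 5.98 and 16.2 in Dex+IL27. Every treated library was far below Ctrl, and the IL27 libraries lay between Ctrl and the 2 groups with Dex. Tnf, the gene of tumour necrosis factor, stood at 107, 130 and 121 CPM in Ctrl, 16.5, 18.7 and 22.4 in Dex, 34.9, 37.4 and 36.7 in IL27, and 11.8, 5.05 and 6.57 in Dex+IL27. Tnf also fell at day 3 in WT cells, by 0.94 ± 0.15 on the log2 scale (adjusted p = 5.22e-04). Csf2, the gene of GM-CSF, had 30, 10 and 12 counts in Ctrl and 0 in all 9 treated libraries. Il2 had 345, 178.1 and 277.99 counts in Ctrl, at most 4 in Dex, 0, 0 and 37 with IL27 and 0 with Dex+IL27.

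At day 9, called genes of the lists of store-operated entry and of IP3 production and release were mostly higher. The counts given for these lists do not separate genes that promote calcium entry or release from genes that limit it. In the list of store-operated entry and plasma membrane channels, 7 of 14 tested genes rose with Dex, 8 with IL27 and 11 with Dex+IL27, and 0 fell. The share of all genes that rose was 28.2%, 29.3% and 34.3%. Tmem66 (Saraf), a regulator of store-operated entry, went from 210, 202 and 191 CPM in Ctrl to 430, 336 and 378 in Dex (0.94 ± 0.08, adjusted p = 2.17e-07). It held 461, 429 and 408 CPM in IL27 and 477, 467 and 485 in Dex+IL27. P2rx4, an ATP-gated cation channel, rose by 1.06 ± 0.12 with Dex and 1.40 ± 0.11 with IL27 (adjusted p = 2.17e-06 and 1.42e-07). On day 3 the list split, with 3 genes that rose (Trpv2, Kcnn4 and Cacna1s) and 1 that fell. The latter was Stim2, a paralog of Stim1 that senses the store, at 15.2, 19.6 and 18.6 CPM in WT Ctrl and 11.6, 9.60 and 10.5 in WT Dex (-0.74 ± 0.15, adjusted p = 0.00349). In cKO cells Stim2 held 14.8, 18.6 and 14.6 CPM in Ctrl and 17.1, 13.02 and 13.4 in Dex, which overlapped.

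In the list of IP3 production and release, 5 of 8 tested genes rose with Dex, 6 with IL27 and 5 with Dex+IL27. In the same order 0, 0 and 1 fell, where 28.2%, 29.3% and 34.3% of all genes rose. Some of the genes that rose encode enzymes that remove IP3. These were Itpkb in each comparison (0.73 ± 0.17, 0.60 ± 0.17 and 1.02 ± 0.17) and Inpp5a with IL27 (1.73 ± 0.54). Plcg1, the phospholipase that makes IP3 below the T cell receptor, stood at 32.7, 38.6 and 45.4 CPM in Ctrl, 78.1, 68.7 and 60.3 in Dex, 80.3, 58.7 and 73.8 in IL27, and 93.4, 83.2 and 90.3 in Dex+IL27. The log2 changes of Plcg1 were 0.84 ± 0.14, 0.88 ± 0.13 and 1.23 ± 0.13 (adjusted p = 9.32e-05, 5.28e-05 and 1.14e-06). At day 3 it rose with Dex in WT by 0.34 ± 0.08 (adjusted p = 0.00940). That call was lost without WT Ctrl replicate 1 or WT Dex replicate 3 and in a fit of all 24 libraries (adjusted p 0.00174 to 0.0816 over 16 alternatives). The other IP3 receptors, Itpr2 and Itpr3, rose with Dex by 0.75 ± 0.16 and 0.85 ± 0.15 (adjusted p = 7.99e-04 and 1.58e-04), where Itpr1 fell. Plcg2, a related phospholipase, rose by 0.92 ± 0.12 with Dex and 1.26 ± 0.12 with IL27 (adjusted p = 1.12e-05 and 4.87e-07).

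The calmodulin and calcineurin list was mixed, with 4 of 14 genes that rose and 4 that fell with Dex, the same counts with IL27, and 7 and 5 with Dex+IL27, where 55.6%, 57.4% and 66.9% of all genes were called. The calmodulin gene Calm3 fell in all 3 comparisons, and Calm2 in those with IL27. Of calcineurin, the regulatory subunit gene Ppp3r1 fell in all 3 and the catalytic subunit gene Ppp3cc rose in all 3, while the catalytic Ppp3ca and Ppp3cb rose with Dex+IL27. These genes were chosen after their values were seen. Camk2d, a kinase that calmodulin activates, rose from 17.6, 15.1 and 18.8 CPM to 45.4, 39.5 and 43.1 (1.33 ± 0.12, adjusted p = 3.89e-07). Among NFAT factors and kinases, 3 of 11 rose and 2 fell with Dex, and 4 rose and 0 fell with IL27 and with Dex+IL27, all below the 55.6%, 57.4% and 66.9% of all genes called. Over 16 alternatives 1 to 4 rose with IL27 and 2 to 4 with Dex+IL27. The kinase gene Gsk3b, whose product returns NFAT to the cytosol, was among those that rose in each. Nfatc3, another factor regulated by calcineurin, held 24.1, 28.2 and 32.2 CPM in Ctrl, 42.7, 43.9 and 42.6 in Dex, 66.1, 47.7 and 49.0 in IL27, and 82.1, 70.8 and 67.7 in Dex+IL27. All treated libraries were above Ctrl, and the rise was 0.62 ± 0.13, 0.96 ± 0.13 and 1.42 ± 0.13 (adjusted p = 0.00104, 1.98e-05 and 2.03e-07). Nfat5, the family member that does not bind calcineurin, rose by 0.49 ± 0.08 with Dex (adjusted p = 1.51e-04). Nfatc4 and Rcan2 did not pass the filter, and Rcan3 passed in none of these 3 comparisons.

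Most genes of the list of calcium-binding proteins of the endoplasmic reticulum lumen fell at day 9. Of 9 genes, 7 fell with Dex, 8 with IL27 and 8 with Dex+IL27, and 1 rose each time, where 27.4%, 28.1% and 32.6% of all genes fell. Hsp90b1 (GRP94), a chaperone that binds calcium, went from 1323, 1338 and 1299 CPM in Ctrl to 591, 644 and 621 in Dex (-1.08 ± 0.07, adjusted p = 1.72e-08). Pdia3, a disulfide isomerase of the store, fell by 0.58 ± 0.05 with Dex and 0.78 ± 0.05 with IL27 (adjusted p = 3.08e-07 and 2.67e-08). The riser was Sdf4 (Cab45), whose product is a calcium-binding protein of the Golgi lumen. It held 412, 405 and 436 CPM in Ctrl, 1022, 1017 and 997 in Dex, 895, 713 and 832 in IL27, and 1013, 1045 and 1072 in Dex+IL27. Sdf4 also rose at day 3 in WT cells, from 757, 696 and 671 CPM to 990, 1108 and 1051 (0.58 ± 0.08, adjusted p = 1.01e-04), while the cKO libraries overlapped at 679 to 854 CPM in Ctrl and 681 to 828 in Dex. In the same comparison of WT cells 3 of the 9 fell, where 4.5% of all genes fell, and 1 to 4 fell over 16 alternatives. They were Rcn1 (-0.57 ± 0.10, adjusted p = 9.56e-04), Hspa5 (-0.30 ± 0.06, adjusted p = 0.00191) and Canx (-0.15 ± 0.04, adjusted p = 0.0176). The genotypes' Dex responses differed for Sdf4, Rcn1 and Canx.

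Among mitochondrial uptake genes 2 of 8 rose and 1 fell with Dex, 4 rose and 1 fell with IL27, and 2 rose and 2 fell with Dex+IL27. These shares lie below or near the 55.6%, 57.4% and 66.9% of all genes called, and with IL27 2 to 4 rose over 16 alternatives. Ccdc109b (Mcub), a subunit that dampens the uniporter, rose by 0.99 ± 0.10, 0.92 ± 0.10 and 0.92 ± 0.10 in the 3 comparisons (adjusted p = 9.76e-07, 1.68e-06 and 9.00e-07). Efha1 (Micu2), a calcium sensor of the uniporter, rose by 0.71 ± 0.18, 1.00 ± 0.18 and 0.81 ± 0.18 (adjusted p = 0.00398, 2.66e-04 and 0.00111). Letm1, an inner membrane ion exchanger protein, fell with Dex by 0.66 ± 0.13 (adjusted p = 4.29e-04). In the list of pumps and exchangers 2 of 6 rose and 1 fell in each day 9 comparison, Atp2a1 among those that rose. The gene that fell was Nptn, the gene of neuroplastin, an accessory subunit of the PMCA pumps, by 0.83 ± 0.08 with Dex (adjusted p = 6.09e-07).

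The genes whose pattern over the 24 libraries was most like that of Atp2b4 were sought among 8833 genes whose mean reached 10 CPM in some group. Likeness was the root mean square difference of log2(CPM + 1), each gene centred on its own mean, and its median over the candidates was 1.45. Neb was nearest at 0.292, followed by Id2 at 0.440, Lrp1 at 0.464, Vim at 0.509 and Frmd4b at 0.514. Neb, the gene of nebulin, a giant protein of muscle thin filaments, had mean levels of 20.4 CPM in WT Ctrl and 96.0 in WT Dex at day 3, and of 23.98 and 26.4 in cKO Ctrl and cKO Dex. At day 9 Neb stood at 92.9 CPM in Ctrl, 417 in Dex, 172 with IL27 and 314 with Dex+IL27, the same order of groups as Atp2b4 at that day. Lrp1, a large endocytic receptor, had 29.8 CPM in Ctrl and 112 in Dex at day 9 but stood at 23.1 in IL27, below Ctrl, where Atp2b4 was above it. The likeness uses the values by which Atp2b4 was chosen and is a description.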

How the data were processed

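Full-length RNA-seq of 24 libraries was deposited as 2 gene tables. The authors deposited estimated counts per gene, not normalized, and FPKM values scaled by TMM, as the tables are named. The submitters' processing notes name TopHat, RSEM, DESeq and mm9, with no versions or roles. Estimated counts were rounded to whole numbers and tested in R 4.3.3 with edgeR 4.0.16 (TMM, filterByExpr with a minimum count of 10, quasi-likelihood F test, prior count 0.125) in 1 fit per day, or over both days for the comparison of days, with Benjamini-Hochberg adjustment over all genes. The SE is the log2 change divided by the square root of F. Unlike the deposited FPKM, the CPM values were computed from the counts. DESeq2 1.42.0 and limma 3.58.1 (on log2 of the deposited FPKM plus 1 or 0.1) were alternatives. Figures were drawn with Python 3.11.15 and matplotlib 3.10.9. The fits were tested on simulated data.

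The 24 libraries were grouped by their titles, with 12 on each day, and 9 comparisons were made. Replicate libraries of a group differed by more than counting noise (chi-square per gene 4.33 to 26.8), so none was treated as a duplicate deposit of another. Intervals cover the spread between libraries, and genes with few counts, such as Rcan1 and Orai1, have wide errors. Counts per gene were made without a stated use of strand, so reads of overlapping or antisense genes cannot be told apart. The members, the 8 pathway lists and the tests were chosen with earlier results of these data known. Genes named in the text are the members, their paralogs that passed the filter, the 2 genes of each list with the lowest p for Dex and for IL27 at day 9, Nr3c1, and the 5 genes most like Atp2b4. Other names were added after their values were seen. Not every gene that this rule names is reported here. Alternatives covered scaling, filter, tool, libraries in the fit, a replicate block and each library left out. The alternatives for the lists and pathway genes were chosen after seeing the data. Promoter windows are of GRCm38.p6, not of mm9, and were used for sequence alone.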

Additional observations from a re-analysis of the deposited data

Results flagged for a closer look

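The effects of 2 agents, or of 1 agent on 2 days, differed by a test of the difference itself for 4 genes, all by edgeR's quasi-likelihood test. They are 2 of 10 genes for the interaction of Dex and IL27, which 28.5% of all genes passed, and 3 of 9 for the difference between the days, which 39.6% passed. For Atp2b4 the interaction of Dex and IL27 at day 9 was -1.14 ± 0.18 (SE, log2, adjusted p = 3.25e-04), and the combination lay below Dex alone in all 3 libraries. For Atp2a2 it was 0.77 ± 0.22 (adjusted p = 0.0151): both agents together lowered it by less than the sum of the single falls. Between the days, the Dex effect was different (day 9 less day 3) by 0.50 ± 0.15 for Atp2b1 (adjusted p = 0.00902), 0.36 ± 0.13 for Stim1 (adjusted p = 0.0369) and -0.80 ± 0.18 for Atp2a2 (adjusted p = 7.88e-04). The call of Stim1 was lost in 14 of 20 alternatives. Day runs with culture history and with the letter of the library titles, which cannot be told apart.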

How the results depend on the processing

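The calls of Atp2b4, Atp2a2, Atp2a3 and Nfatc2 at day 9, and of Nfatc1 with Dex+IL27, kept direction and side of the threshold under all alternatives run, as did those of Atp2b1. The calcium genes called with Dex in WT at day 3 numbered 1, and 0 in limma without a filter or without WT Ctrl replicate 1 (range 0 to 1 over libraries left out). For cKO against WT without Dex the number was 0, and 1 (Nfatc2, adjusted p = 0.0244) with DESeq2, in a range of 0.0244 to 0.187 over 15 alternatives, and 0 with any library left out. Stim1's difference between days lost its call in 14 of 20 alternatives. Nfatc1 with Dex passed in a fit of the groups compared alone (adjusted p = 0.0305, range 0.0305 to 0.392), and the Nfatc2 interaction of Dex and IL27 in a fit of all 24 libraries (adjusted p = 0.0424, range 0.0424 to 0.298).

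Over all genes, the count for Dex in WT at day 3 was 1129, and 691 to 1013 with 1 library left out (691 without WT Dex replicate 3, 722 without WT Ctrl replicate 2). For Dex in cKO it was 0, and 26 without a filter, 1 in a fit of the groups compared alone, 1 with the replicate block and 0 to 1 with 1 library left out. For the difference between genotypes it was 353, and 213 with all 24 libraries, 556 with DESeq2, 185 in limma without a filter, 765 without a filter and 224 to 479 with 1 left out. For cKO against WT it was 283, and 129, 533, 101 and 793 under the same settings and 63 to 364 with 1 left out. With library totals in place of TMM the median of all genes for Dex+IL27 moved from 0.050 to -0.071, and the share of higher calls fell from 52.3% to 42.3% for Dex in WT at day 3 and from 58.3% to 35.3% for cKO against WT.

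Reversals touched only changes that passed in neither setting. With library totals these were Orai1 with Dex (-0.016), and with IL27 Itpr1 (-0.0055), Orai1 (-0.039) and Rcan1 (-0.030). With IL27, Rcan1 was also -0.015 in limma without a filter and -0.013 with the replicate block, and Atp2b1 was 0.011 with all 24 libraries. With 1 library left out, log2 changes at day 3 ranged, for Dex in WT, from -0.0012 to 0.091 (Atp2a3), -0.040 to 0.15 (Atp2b1), -0.30 to 0.086 (Orai1) and -0.084 to 0.050 (Stim1), and for Dex in cKO from -0.031 to 0.075 (Nfatc2). At day 9 they ranged with Dex from -0.16 to 0.00044 (Atp2a3) and -0.21 to 0.24 (Orai1). With IL27 they ranged from -0.13 to 0.054 (Atp2b1), -0.049 to 0.13 (Itpr1), -0.051 to 0.19 (Nfatc1), -0.21 to 0.23 (Orai1) and -0.38 to 0.39 (Rcan1), and with Dex+IL27 from -0.12 to 0.040 (Itpr1). A pseudocount of 1 FPKM shrank the Atp2b4 differences to 1.71 (Dex in WT, day 3), 0.21 (cKO), 1.503 (genotypes) and -0.24 (days), and 0.1 FPKM gave 2.68, 2.30 and -0.96 for the first and the last 2. Of 1204 pathway gene values under alternatives, 1156 kept their side, 48 lost a call and 0 reversed.

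Deviations of same-numbered libraries correlated at -0.0217 to 0.174 on day 3 and -0.177 to 0.297 on day 9. Libraries with different numbers were not compared in this way, so whether replicate numbers pair the samples was not settled. With the replicate block the calls of the 10 genes did not change, while at day 3 the list of pumps and exchangers had 2 calls in place of 1 and that of calmodulin and calcineurin 0 in place of 1. It could not be fitted for cKO against WT, whose numbers do not overlap.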
